A study of Mus musculus with 2 samples.

Results

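The members described here were miRNA reads that ended in bases their hairpin does not encode. A read of 20 to 26 nt was a member when it did not lie exactly inside any of the 2202 mouse miRNA hairpins of GENCODE M21 (GRCm38, sense strand) but did so after its last 1, 2 or 3 bases were removed. The fewest possible bases were removed, and the remaining part, called the body, had to be at least 18 nt long. Reads of 20 to 26 nt that lay wholly inside a hairpin are called untailed. The rule gave 7910 distinct tailed sequences among the 789404 distinct sequences of the WT library and 7751 among the 512076 of the Hsp90α KO library, or 11116 different sequences in all. They carried 334745 reads in WT and 338385 in KO, which were 5.22% and 6.05% of the reads of the libraries.

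The study asked how loss of Hsp90α, an inducible cytosolic form of the chaperone HSP90, alters small RNAs in the fetal testis. Whole testes of C57BL/6 fetuses were taken at E16.5 (embryonic day 16.5), and 20 testes of each genotype were pooled into 1 library. The WT fetuses carried functional Hsp90α and the KO fetuses lacked it, with no other agent given to either. Neither genotype had a replicate library, so no difference between WT and KO has a replicate check and no p-value is given. The intervals below are 95% Wilson intervals of read counts, which cover counting error only, because PCR copies without molecular identifiers are not independent molecules.

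After Dicer and Drosha have cut a miRNA from its hairpin, terminal nucleotidyltransferases can add bases to its 3′ end without a template. TUT4 and TUT7 add uridine, and TENT2 (GLD2) adds adenosine. On let-7 precursors, uridine addition is known for its regulation by LIN28: mono-uridylation completes the short overhang of the group II precursors, whereas oligo-uridylation marks a precursor for decay. Added bases have been linked to the stability and target choice of mature miRNAs, with effects that differ between miRNAs.

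The sequences below are the most abundant tailed forms of each kind of tail, shown with the untailed form from the same hairpin and arm so that the added bases can be seen. Lower case is the part that lies in the hairpin and capitals are the added bases. The reads come from the deposited libraries, and the coordinates of the bodies are on GRCm38 with the GENCODE M21 annotation, where each lies in the exon of its miRNA gene. Mir10b, from the Hoxd cluster, is on the plus strand of chromosome 2, with the body of the longest form shown at chr2:74726074-74726096. Mir92-1, of the miR-17-92 cluster, is on the plus strand at chr14:115044476-115044497. Mir127, from the imprinted Dlk1-Dio3 region, is on the plus strand at chr12:109592888-109592909. Mir99b is on the plus strand at chr17:17830194-17830215, and Mir3107 and Mir486, which overlap on opposite strands, give the same sequence at chr8:23142569-23142590. Mir199a-1 lies on the minus strand at chr9:21496537-21496559, and Mir199a-2 holds the same body.
Mir10b 5p, untailed: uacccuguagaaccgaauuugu
Mir10b 5p, A tail: uacccuguagaaccgaauuugugA
Mir10b 5p, A tail on the form starting 1 nt later: acccuguagaaccgaauuugugA
Mir92-1 3p, untailed: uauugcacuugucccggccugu
Mir92-1 3p, AA tail: uauugcacuugucccggccuguAA
Mir92-1 3p, AU tail: uauugcacuugucccggccuguAU
Mir92-1 3p, AAU tail: uauugcacuugucccggccuguAAU
Mir127 3p, untailed: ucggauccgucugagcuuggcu
Mir127 3p, U tail: ucggauccgucugagcuuggcuU
Mir127 3p, AU tail: ucggauccgucugagcuuggcuAU
Mir3107 and Mir486 5p, untailed: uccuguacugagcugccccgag
Mir3107 and Mir486 5p, U tail: uccuguacugagcugccccgagU
Mir199a 5p, untailed: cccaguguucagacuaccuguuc
Mir199a 5p, U tail: cccaguguucagacuaccuguucU
Mir99b 5p, untailed: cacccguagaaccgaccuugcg
Mir99b 5p, A tail: cacccguagaaccgaccuugcgA
Mir10b 5p, G tail: uacccuguagaaccgaauuugugG
Mir10b 5p, G tail on the form starting 1 nt later: acccuguagaaccgaauuugugG
Mir10b 5p, G tail on a shorter body: uacccuguagaaccgaauuugG
Mir10b 5p, C tail: uacccuguagaaccgaauuugugC
Mir10b 5p, C tail on the form starting 1 nt later: acccuguagaaccgaauuugugC
Mir10b 5p, C tail on a shorter body: uacccuguagaaccgaauuugC

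The untailed form of Mir10b was read 995541 times in WT and 986106 times in KO, and its leading A-tailed form 18159 and 18920 times. Tailed forms could come close to the untailed form in number. The AA form of Mir92-1 was read 12434 times in WT and 12763 in KO and the AU form 11852 and 11195 times, against 13867 and 13846 reads of the untailed form. The U form of the Mir3107 and Mir486 sequence was read 10233 and 9906 times, above the 5132 and 4591 reads of its untailed form. The U form of Mir127 was read 12153 and 11372 times and the AU form 10579 and 10057 times, below the 80203 and 84569 untailed reads. The most abundant U-tailed sequence of all came from Mir143 3p. Its letters are not shown.

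The tissue label was checked against miRNA markers before the tails were compared. Mir202, a gonadal miRNA of supporting cells, gave 1856 reads per 1000000 miRNA reads (RPM) in WT and 1970 in KO, and the miR-290 cluster, a marker of germ cells, gave 833 and 1050. Blood miRNAs were also read, with 574 WT and 482 KO reads of Mir451a 5p, and the Mir3107 and Mir486 sequence, abundant in erythroid cells, gave 23980 and 22309 reads. The part of blood cells in the tails was not tested. In a pooled tissue, fewer cells of a type and less RNA per cell cannot be told apart. Small RNA reads do not measure the targeted gene, so the labels rest on the submitters' description.

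Tails were frequent in both libraries. The tailed share was 11.9% of 2811233 miRNA reads in WT (interval 11.870 to 11.945) and 11.8% of 2860160 in KO (11.794 to 11.868). Mir10b, the most abundant miRNA, was little tailed, and without it the shares were 20.2% and 19.7%. The same rule turned around, with bases removed from the 5′ end, found 0.279% in WT and 0.260% in KO. Bases unlike the hairpin were therefore much more frequent at the 3′ end than at the 5′ end of the same reads. The smallest share that 3 reads can show here was 0.000107% in WT and 0.000105% in KO.

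Most added bases were A or U. U tails, of 1 to 3 uridines, made up 41.2% of tailed reads in WT and 40.2% in KO, and A tails 35.7% and 36.7%. Mixed tails made up 17.5% and 17.2%, G tails 4.51% and 4.71%, and C tails 1.10% and 1.17%. Counted once per distinct sequence instead of by reads, A and U changed places, with 23.3% and 23.8% A tails and 22.3% and 21.5% U tails. Mixed, G and C tails together then made up most of the tailed sequences. Counted base by base over reads, 93.2% and 93.1% of the added bases were A or U. Most tails were short. Single bases were 68.4% and 68.8% of tails, pairs 24.1% and 23.5%, and runs of 3 bases 7.53% and 7.68%.

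Mixed tails were also largely made of A and U, at 81.3% in WT and 81.0% in KO. An A followed by a U was the commonest mixed tail, with 52.4% of mixed tails in WT and 51.0% in KO, whereas U followed by A made up 6.80% and 6.93%. The tail AAU followed with 8.02% and 8.15%, and AUU with 4.97% and 5.48%. The order A before U thus led by a wide margin in both libraries. Much of it came from 2 miRNAs, Mir92-1 and Mir127, whose AU forms are printed above. The hairpin base after the main Mir92-1 body is U, so a tail starting with U could not be seen there. The order is therefore partly set by the rule. After the main Mir127 body the next base is G, which hides neither A nor U.

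An added base that equals the next base of the hairpin cannot be seen by this rule, so the frequency of each base was also taken over the reads where it could be seen. Over reads with another next base, a single added U was present at 5.47% in WT and 5.33% in KO, and a single A at 3.63% and 3.72%. A single G was found in 1.57% and 1.63%, and a single C in 0.138% and 0.149%. Mir10b, whose most common untailed form is followed by a G, dominated these denominators. Without it U stood at 12.3% and 11.7%, A at 4.9996% and 5.084%, G at 0.654% and 0.680%, and C at 0.2435% and 0.2442%. U, A, G and C kept this order in both libraries with and without Mir10b.

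Of the G-tailed reads, 82.0% in WT (12375 of 15092) and 82.6% in KO (13151 of 15922) ended in UGG, and 64.5% in both libraries were Mir10b 5p reads that did so. The 3′ adaptor of the library kit is known to begin with UGG, so a read of a body ending before UG with the start of the adaptor left on gives the same letters as these G tails. Whether these G bases were present in the RNA was not tested. Elsewhere such letters were rare: mixed tails whose bases were UG were 0.752% of mixed tails in WT, and mixed tails on reads ending in UGG were 0.0274% and 0.0362%. A single adaptor base left on a read would be scored as a U tail. These counts cannot show it, and it was not tested. The G tails of Mir125a 5p (32.2% of its tails in WT) and of the Mir125b 5p sequence shared by both copies (35.1%) followed a body ending in UG in their most abundant form as well.

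A changed base was more frequent at the last base than at the median inner base of the most abundant untailed sequence in each of 5 sets. For the untailed Mir10b sequence above, reads with 1 changed base at positions 2 to 19, counted from the 5′ end, had a median of 0.0216% of the untailed count in WT and 0.0219% in KO. At its last base the changed reads, which the rule counts as a tail on a body 1 nt shorter, were 0.206% and 0.263%. For Mir127 3p the inner median was 0.0318% and 0.0337%, against 4.51% and 4.97% at the last base. For Mir199a 5p it was 0.0216% and 0.0252%, against 4.78% and 4.39%. The last base was thus changed 9.52 and 12.0 times as often as an inner base on Mir10b, 142 and 147 times on Mir127 and 222 and 175 times on Mir199a. The gap was smaller on Mir10a 5p, with 0.0322% and 0.0207% inside against 0.365% and 0.304% at the last base, and on Mir143 3p, with 0.0241% and 0.0220% against 0.453% and 0.531%. Single inner positions could be higher than the median, up to 0.294% on Mir143 3p in WT. Position 12 of Mir10a 5p gave 0.381% in WT, above its last base. Mir10a has U there and Mir10b has A, and the same 142 reads were counted for both. These reads cannot be assigned to Mir10a.

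The members were tied to where the body ended. Bodies ending in G were tailed in 24.0% of WT and 24.2% of KO reads, bodies ending in C in 22.4% and 20.4%, bodies ending in A in 19.1% and 19.0%, and bodies ending in U in 7.07% and 6.99%. Among the tails that could be seen, bodies ending in C had mainly U, which made up 74.2% and 71.5% of their tails. In WT 29493 of these U tails were on the main body of Mir143 3p and 7684 on that of Mir199a 5p. The next hairpin base at both is A, so an added A could not be seen there. Bodies ending in G had A in 50.6% and 50.5% of their tails. In WT 31713 of these A tails were on Mir10b 5p bodies ending in GUG, where the next hairpin base is U and an added U could not be seen. The U-ending bodies include the untailed form of Mir10b, the most abundant sequence of both libraries. In WT the Mir10b 5p body ending in GU gave 1074227 of the 1951215 reads on U-ending bodies. It gave 14280 of their 137940 tailed reads. The Mir10b 5p body 2 nt longer gave another 206367 reads, 3487 of them tailed. The low tailed share of U-ending bodies therefore came largely from Mir10b 5p.

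The ends of Mir10b, the most abundant miRNA, give an example. Reads whose body ended in GU, like its untailed form above, were tailed in 1.33% of 1074227 reads in WT and 1.32% of 1063798 in KO. Reads whose body was 1 nt longer and ended in GUG were tailed in 26.3% of 158196 and 26.7% of 161223 reads, and reads 2 nt longer, ending in U again, in 1.69% and 1.72%. The GUG bodies thus carried 66.1% and 66.5% of all tails of Mir10b 5p, of which 31713 of 41670 reads in WT were A tails. The hairpin base after GUG is U, so a U added there is counted as the untailed body 2 nt longer than the main one. How many of those longer reads arose so was not tested. Mir10a 5p, its paralogue from the Hoxb cluster, had the same pattern. Its tailed share was 1.16% and 1.12% on its main body and 29.7% and 29.2% on the body 1 nt longer, which is also followed by U. The form starting 1 nt later was tailed more often, in 8.74% and 8.65% of Mir10b 5p reads against 3.39% and 3.51% for the main start. For Mir10a 5p these values were 14.3% and 13.9% against 4.51% and 4.24%.

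Other miRNAs also had 1 body end that held most of their tails. Mir143 3p, a miRNA of smooth muscle and mesenchyme, was tailed in 45.1% of WT and 45.9% of KO reads that ended in C, and in 5.08% and 5.17% of those 1 nt shorter. Mir182 5p, a miRNA of the miR-183 cluster, was tailed in 57.1% and 58.1% of reads on a body ending in G and in 2.72% and 3.12% of reads on its main body 1 nt shorter. Mir99b 5p was tailed in 32.0% and 32.5% of reads on the body printed above and in 3.37% and 3.30% of those 1 nt shorter. Mir351 5p was tailed in 7.56% and 7.45% of reads on its main body and in 46.6% and 45.1% of reads on the body 1 nt longer. Neighbouring ends of 1 miRNA therefore differed more in the tails that could be seen than WT differed from KO at any of these ends.

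Measured against RefSeq mature sequences, tails sat mainly on bodies that ended where the annotated miRNA ends. So did most reads other than those of Mir10b. A mature sequence starting within 3 nt of the read start was found for 92.4% of WT and 93.4% of KO miRNA reads. Among tailed reads with such a match, 270592 in WT and 281032 in KO, 58.7% and 59.2% had a body ending exactly at the annotated end. Among untailed reads this share was 26.29% and 27.03%, and the abundant untailed Mir10b form ends before the annotated end. Without Mir10b, bodies with the annotated end held most matched reads, 612047 in WT against 348183 on shorter and 170983 on longer ones. The gap between tailed and untailed reads therefore came largely from Mir10b. Leaving Mir10b out, the tailed share in WT was 10.9% on bodies shorter than annotated, 19.2% on bodies with the annotated end and 30.7% on longer ones. The KO values were 10.9%, 19.0% and 29.7%.

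The tailed share was also taken by read length. Read length includes the tail, so a rise of the share with it is partly built into the rule. Reads of 22 nt were tailed in 3.50% of cases in WT and 3.26% in KO, reads of 23 nt in 24.0% and 23.1%, and reads of 24 nt in 38.3% and 37.6%. At 25 nt 68.5% and 70.1% of miRNA reads were tailed. Most miRNA reads of 25 nt, which is within the size range of piRNAs, were thus miRNA bodies with added bases. By body length there was no steady rise. In WT the tailed share was 10.1% for bodies of 20 nt, 17.8% at 21 nt and 11.4% at 22 nt. It was 11.2% at 23 nt, 5.34% at 24 nt and 24.0% at 25 nt. The longest bodies left room for fewer added bases within the read length limit.

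The arms of the hairpin differed. On the 3p arm 29.0% of WT and 28.8% of KO reads were tailed, and on the 5p arm 7.06% and 7.28%, or 12.6% and 12.7% without Mir10b. Over sets of reads with 1000 or more in each library, the median tailed share was 6.17% and 6.78% for the 53 sets on the 5p arm and 20.99% and 20.26% for the 39 on the 3p arm. A set here is all reads whose body lies in the same hairpins on the same arm. A tails led on 5p reads, at 46.7% and 46.0% against 36.6% and 37.5% for U, but without Mir10b U led, at 51.5% and 52.5% against 34.8% and 34.3%. U tails led on 3p reads, at 45.1% and 42.8% against 26.3% and 28.0% for A, and mixed tails were 26.96% and 27.5%. In WT 29493 of the 81202 U tails on this arm were on the main body of Mir143 3p, where an added A could not be seen. The gap between U and A by reads thus rested largely on Mir143 3p. On the main body of Mir92-1 3p, where an added U could not be seen, lay 19323 of the 47351 A tails. Counted once per distinct sequence, 61.9% and 63.4% of 5p and 67.1% and 67.7% of 3p sequences were tailed, a much smaller gap. By reads, U outnumbered A in 29 of the 39 sets on the 3p arm in WT and 27 in KO, and in 18 and 17 of the 53 on the 5p arm. The 3′ end of a 3p miRNA is cut by Drosha at the base of the hairpin, and that of a 5p miRNA by Dicer at the loop.

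The tailed share varied widely between miRNAs. Of 1300 sets with any read, 900 had a tailed read, and 92 had 1000 reads in each library. Over these 92 the share ran from 0.421% to 74.6% in WT and from 0.321% to 75.6% in KO, with medians of 11.5% and 10.8%. In each library 8 sets were tailed in over 50% of reads and 26 in under 5%. Among the leading classes U came first in 44 sets in WT and 42 in KO, A in 41 and 43, C in 4 and 4, mixed in 3 and 3, and G in 0. The tails were concentrated in few miRNAs: 5 sets held 64.1% and 62.8% of tailed reads and 15 sets held 82.0% and 82.2%.

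By the tails that could be seen, the 15 sets with most tailed reads fell into U-tailed, A-tailed and mixed ones. At the main bodies of Mir143 3p and Mir199a 5p the next hairpin base is A, so an added A could not be seen. The main bodies of Mir322 5p and Mir26a 5p are followed by G, which hides neither A nor U. Mir143 3p was tailed in 28.0% of 119889 WT reads and 28.2% of 98930 KO reads, and 95.4% of the WT tails were U. The Mir199a 5p sequence of both copies was tailed in 18.6% of WT (18.2 to 18.9) and 16.8% of KO reads (16.5 to 17.0), with 90.9% U in WT. Mir322 5p, an embryonic miRNA of the X chromosome, was tailed in 60.4% and 60.3%, with 96.5% U in WT. The Mir3107 and Mir486 sequence was tailed in 71.1% (70.5 to 71.7) and 72.4% (71.8 to 73.0), with 68.6% U in WT. In WT U also led on Mir26a 5p (11.2% and 10.3% tailed), Mir351 5p (19.5% and 19.4%), Mir151 3p (40.4% and 40.8%), Mir130a 3p (47.6% and 46.2%) and the Mir199 3p sequence of 3 hairpins (14.82% and 14.98%). On Mir182 5p (21.8% and 22.7% tailed) U led in WT, with 1966 U and 1860 A tails, and A led in KO, with 2118 A and 2025 U tails.

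A tails led on fewer of these sets. At the main body of Mir92-1 3p the next hairpin base is U, as it is at the Mir10b and Mir10a 5p bodies that held most tails. An added U could not be seen there. Mir10b 5p was tailed in 4.30% of 1465108 WT reads and 4.41% of 1472413 KO reads, and 64.0% of its WT tails were A. Mir10a 5p was tailed in 7.29% and 6.96%, with 79.7% A in WT. Mir99b 5p was tailed in 20.5% and 20.9% with A at 50.1% and U at 44.5% of its WT tails, so that A and U were close. Mir92-1 3p was tailed in 72.3% of reads in both libraries, with 49.7% A and 46.2% mixed tails in WT. Its paralogue Mir92-2 shares the body up to the last U, and over both hairpins the share was 69.8% of 60066 reads in WT and 69.3% of 59916 in KO. A U added to a Mir92-2 body cannot be told from an untailed Mir92-1 read. Mir127 3p was tailed in 35.0% (34.8 to 35.3) and 33.8% (33.58 to 34.02), with 39.9% mixed, 33.2% U and 25.9% A tails in WT.

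The most heavily tailed sets were Mir148b 3p, Mir322 3p, Mir130b 3p and the Mir92-1 and Mir486 sequences already described. Mir148b 3p stood out for its double U, which is shown here with its untailed form at chr15:103285185-103285206 on the plus strand, beside Mir322 3p at chrX:53054269-53054289 on the minus strand.
Mir148b 3p, untailed: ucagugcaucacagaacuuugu
Mir148b 3p, UU tail: ucagugcaucacagaacuuuguUU
Mir148b 3p, U tail: ucagugcaucacagaacuuuguU
Mir322 3p, untailed: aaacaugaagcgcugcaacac
Mir322 3p, U tail: aaacaugaagcgcugcaacacU

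The UU form of Mir148b 3p had 1021 reads in WT and 1040 in KO, its U form 309 and 314, and its untailed form 473 and 455. The whole set was tailed in 74.6% (72.7 to 76.5) and 75.6% (73.7 to 77.4). The U form of Mir322 3p had 1825 and 1833 reads against 295 and 231 for the untailed form, and the set was tailed in 71.8% and 71.2%. Mir130b 3p was tailed in 69.5% (66.7 to 72.1) and 65.0% (62.4 to 67.5), with U and A tails near each other in number. At the other end stood Mir411 5p, at 0.421% and 0.321%, Mir22 3p at 0.891% and 0.882%, Mir16 5p at 1.23% and 1.16%, Mir335 5p at 1.28% and 1.48% and Mir410 3p at 1.36% and 1.31%. Mir411 and Mir410 lie in the same imprinted region as the more heavily tailed Mir127.

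Families known for their tails were looked at in turn. The let-7 family, regulators of developmental timing, was tailed in 9.83% of 28001 WT reads and 9.88% of 25162 KO reads, with A at 61.8% of WT tails. Members differed: Mirlet7i 5p was tailed in 20.9% and 20.1%, Mirlet7e 5p in 20.1% and 18.6% and Mirlet7b 5p in 23.5% and 25.1%, against 4.465% and 4.005% for Mirlet7a 5p and 3.40% and 3.46% for Mirlet7f 5p. The 3p arm of group II precursors, whose overhang is known to be completed by a single uridine, had 578 WT reads, 35.8% of them tailed (32.0 to 39.8), and 483 KO reads, 39.3% of them tailed (35.1 to 43.8). U tails were on 24.6% (21.2 to 28.2) and 29.8% (25.91 to 34.04) of them. On the 3p arm of the other, group I, precursors U tails were on 24.2% of 91 reads (16.5 to 33.9) and 32.9% of 70 reads (22.999 to 44.50), and the intervals of both groups overlapped. Mirlet7e 3p alone gave 73 and 51 of these group I reads. Reads shared by Mirlet7a-1 and Mirlet7c-2, which belong to different groups, entered neither. Within group II, Mirlet7b 3p was tailed in 98 of 110 WT reads and 112 of 120 KO reads, and Mirlet7d 3p in 12.2% of 376 and 10.6% of 293.

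The miR-26 family, a known TUT4 substrate, was tailed in 11.4% (11.1 to 11.7) and 10.5% (10.2 to 10.8), with U at 59.3% of WT tails. The miR-30 family was tailed in 6.40% and 6.50%, with U at 59.6%. The miR-99, miR-100 and miR-125 families together were tailed in 17.8% and 18.4%, most of it from Mir99b 5p. Mir21a 5p had few tails, 200 of 4334 WT reads and 202 of 4258 KO reads, and was the named miRNA with most C, at 60.5% of its WT tails. Its C form is printed here with its untailed form, on the minus strand at chr11:86584118-86584141, because the C stands where the hairpin has a U.
Mir21a 5p, untailed: uagcuuaucagacugauguugacu
Mir21a 5p, C tail: uagcuuaucagacugauguugacC

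The C form of Mir21a 5p had 119 reads in WT and 118 in KO, against 1746 and 1792 of the untailed form. Germ cell and gonadal miRNAs were tailed at levels within the range of the other miRNAs. The miR-290 cluster had 2341 WT reads, 15.04% of them tailed (13.6 to 16.5), and 3004 KO reads, 13.1% of them tailed (11.99 to 14.4), with Mir292 5p at 47.1% and 49.2% and Mir295 3p at 1.99% and 1.93%. Mir202 5p was tailed in 5.66% and 5.63%, with 84.9% A among its WT tails. Of the blood markers, Mir451a 5p, which is made without Dicer, was tailed in 3 of 574 reads and 2 of 482 reads, and Mir144 5p in 0 of 84 and 0 of 41 reads. Reads that lay in Mir486 but not in Mir3107 were tailed in 26 of 111 WT reads and 21 of 101 KO reads, and held most of the tailed reads of the blood list.

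The tailed share of each miRNA was close between WT and KO. Over the 92 sets the ratio of the KO to the WT share had a median of 0.996 and quartiles of 0.930 and 1.03, and ran from 0.647 to 1.32. The shares correlated across the 92 sets with a Pearson r of 0.998 and a Spearman rho of 0.997, given as a description, since all sets of a genotype come from 1 library. The leading kind of tail was the same in 86 of the 92. No set was higher in KO by over 1.5-fold (0%), and 1 set, 1.09%, was lower. The count of sets past 1.5-fold depended on the rule. It was 0 of 91 with bodies of at least 20 nt and 3 of 85 with single-base tails. It was 5 of 85 in reads of 20 to 23 nt and 16 of 235 sets with 100 or more reads in each library. The set that was lower was Mir136 3p, with 45 of 2483 reads tailed in WT (1.81%, 1.36 to 2.42) and 31 of 2644 in KO (1.17%, 0.827 to 1.66), whose intervals overlapped.

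The intervals of WT and KO were apart in 6 of the 92 sets, or 6.52%, of which 2 were higher and 4 lower in KO. Higher were Mir10b 5p, by a ratio of 1.02, and the Mir3107 and Mir486 sequence, also by 1.02. Lower were Mir127 3p by a ratio of 0.965, Mir26a 5p by 0.924, Mir199a 5p by 0.902 and Mir27b 3p, with 10.2% and 8.99%, by 0.879. The widest of these gaps was on Mir27b 3p by ratio and on Mir199a 5p in percentage points. The level of Mir199a 5p was higher in KO while its tailed share was lower, at 18792 RPM in WT and 27001 in KO. The part of the level in the lower share was not tested. All 6 differences were under 1.5-fold, and without replicate libraries it is not known whether they exceed the spread between animals.

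Single tailed sequences gave the same picture. Of 433 tailed sequences with 100 or more reads in both libraries together, 8 were over 1.5-fold higher in KO by RPM (1.85%) and 7 lower (1.62%), with a median ratio of 0.998. Of 586 untailed sequences chosen in the same way, 9 were higher (1.54%) and 15 lower (2.56%), with a median of 0.989. The share of tailed sequences past the limit was thus near that of the untailed ones. The lowest ratio was 0.113, for a GGU tail on a 20-nt body of Mir10b 5p with 96 reads in WT and 11 in KO, and the highest was 1.70, for an A tail on Mir92-2 3p with 67 and 116 reads. These were picked after their values were seen.

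The libraries shared 4545 tailed sequences, 57.5% of the WT list and 58.6% of the KO list. The shared sequences held 98.7% and 98.8% of the tailed reads, and 3958 sequences in WT and 3827 in KO were read once. Tailed reads that lay whole in some other annotated transcript were 0.278% in WT and 0.168% in KO. Among tails of 2 or 3 bases 22.7% and 23.1% ended in the base that the hairpin has at that place, which a changed base before the end would also give.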

How the data were processed

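Small RNA libraries had been made with the TruSeq Small RNA kit and sequenced on a MiSeq. The authors clipped the adaptor and deposited the raw count of each distinct sequence, with no normalization. Their mapping does not enter the deposited counts. Here, reads of 20 to 26 nt were compared exactly with the 2202 miRNA hairpins of GENCODE M21 (GRCm38), and with the other M21 transcripts on both strands. No genome was used, so a tail encoded outside the annotated transcripts could not be recognised. A read was put in the set of hairpins that hold its body. The arm is the side of the hairpin's middle. Mature ends were taken from RefSeq. Shares have 95% Wilson intervals, and depth allows 3 reads as the smallest count used as a limit. Levels are per 1000000 miRNA reads. With 1 library per genotype no test was made, and sets were compared by 1.5-fold at 1000 or more reads in each library.

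Members and lists were chosen with earlier results of these data known. Named sets were the 15 with most tailed reads, the 5 highest and 5 lowest shares and up to 5 past 1.5-fold each way, and those with 100 or more reads summed from the lists of known tailed families and cell markers. Sets outside this rule are said to be picked later or stand among those with intervals apart. Sequences on one chromosome are not printed. Alternatives covered body and tail length, read length, minimum reads, distinct sequences, untailed length, Mir10b, the normalizing total, the fold and the read minimum. The rule was tested on simulated reads. Python 3.11.15, pandas 2.3.3, numpy 2.4.6 and scipy 1.17.1 were used.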

Additional observations from a re-analysis of the deposited data

Results flagged for a closer look

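Tails longer than the 3 bases of the rule were also present. They were counted in reads of 22 to 34 nt with a body of at least 20 nt followed by 4 to 8 bases that were all A or U. In WT there were 754 such A tails, 569 U tails and 7262 mixed tails, and in KO there were 816, 496 and 6979. Each count is above the 3 reads that a count of 0 allows. Most mixed ones, 4261 in WT and 4257 in KO, were on Mir127 3p, followed by Mir92-1 3p with 816 and 757 and Mir351 5p with 815 and 730. These reads enter no comparison above.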

How the results depend on the processing

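WT values are given as the tailed share of miRNA reads, then the A and U shares of tails, then the tailed shares of 5p and 3p reads, and last the number of sets past 1.5-fold. With a body of at least 20 nt they were 11.8%, 35.8%, 41.4%, 7.001%, 28.8% and 0 of 91. With single-base tails they were 8.46%, 39.7%, 52.4%, 6.22%, 17.6% and 3 of 85. Without tails that match the hairpin at their last base or stop at its end the 5 shares were 11.1%, 37.0%, 42.2%, 6.76% and 26.97%, and with sequences of 2 or more reads 11.8%, 35.9%, 41.5%, 6.99% and 28.8%. In reads of 20 to 23 nt the values were 7.64%, 35.5%, 54.1%, 4.55%, 18.8% and 5 of 85. Counting each distinct sequence once gave 64.4%, 23.3%, 22.3%, 61.9% and 67.1%, so that A came before U, and no set then reached 1000. Without Mir10b the first 4 were 20.2%, 29.2%, 47.3% and 12.6%. With untailed reads of 18 to 26 nt the total was 11.8%, the arms 7.01% and 28.6%, and 2 of 95 sets passed. Per all reads of the library the share was 5.22%, and the ratio of KO to WT, 0.991 with A and U tails only, was 1.16. A 2-fold limit gave 0 of 92 sets and a minimum of 100 reads gave 16 of 235. Chosen after seeing the data, dropping reads that end in UGG gave 11.5%, 37.1%, 42.8% and 6.55% for the first 4. A and U tails alone, and merging hairpins that share a read, were also chosen then. They gave 11.0% and 1 of 94 sets. Dropping tails found whole in another transcript moved no value beyond its counting interval. The cause of these shifts was not tested where the alternative does not set it by removing reads. No paired analysis was possible because each genotype has 1 library. Sets of few reads have the widest counting intervals, and the part of depth in the 16 calls was not tested.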
